A study of Mus musculus with 18 samples.

Results

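Small leucine-rich proteoglycans are secreted proteins of the extracellular matrix, built on a curved core of leucine-rich repeats that binds collagen fibrils. Most carry dermatan, chondroitin or keratan sulfate chains, and several also bind growth factors of the TGF-beta family and cell-surface receptors. In bone and marrow they are known from osteoblasts and stromal cells, and in fat from fibroblast-like stromal cells. The genes described here were a fixed list of 10 symbols found in both deposited count tables: Aspn, Dcn, Bgn, Lum, Fmod, Omd, Ogn, Prelp, Podn and Kera, out of 46983 gene names. The list was drawn up with results of these data known, and the level of asporin (Aspn) in the marrow arms heads it, so the marrow values of Aspn and everything that uses them are given as a description, with no test.

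The libraries came from male mice of the inbred strain C57BL/6J, and all of them carry the label HFD, so every group shares it. In each tissue 4 libraries were HFD alone and 5 were HFD with glutamine, the amino acid named in the title of the series alongside skeletal strength and obesity. The marrow libraries are titled mBMSC and the adipose libraries mAT-MSC VAT, 18 in all. Each library is named by a pair of numbers, such as 1_3, whose meaning the labels do not state. The labels used here state no age, dose or duration of feeding, and nothing in them says that libraries of a group came from separate animals or cultures. Every p-value therefore measures only the spread between these libraries. The column of 1 marrow glutamine library carries numbers that match none of the titles. It is called unnumbered here, and its arm comes from its column name.

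The marrow libraries held 13970788 to 37984603 counts and the adipose libraries 35871168 to 59529238. Between 1755 and 7323 genes reached 100 counts in a marrow library, against 11361 to 14469 in an adipose library. The 10 proteoglycan genes together took 0.1126% to 0.7096% of the counts in marrow and 1.65% to 2.24% in adipose. Osteoblast markers (Bglap, Ibsp, Sp7, Alpl, Dmp1, Runx2, Col1a1 and Spp1) summed to 52519 to 239068 CPM (counts scaled to a common library total, with no further scaling) in marrow. Most of that sum was Col1a1, which alone took 5.03% to 23.0% of all counts of a marrow library. Mesenchymal stromal markers, a list that includes Col3a1, summed to 492 to 2396 CPM in marrow, with 1 of 8 markers at 100 counts or more in every library of an arm, and to 12235 to 17995 CPM in adipose, with all 8. Marrow stroma markers (Cxcl12, Lepr, Kitl, Ebf3, Foxc1 and Adipoq) went the other way, at 1713 to 12725 CPM in marrow and 340 to 729 CPM in adipose. Neutrophil markers reached 2698 to 54233 CPM in marrow, under titles that name mBMSC. The summed CPM of each of 14 cell type marker lists overlapped between the HFD and glutamine arms in both tissues. In bulk RNA, fewer cells of a type and less RNA per cell cannot be told apart.

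Asporin, osteomodulin (Omd) and osteoglycin (Ogn) are neighbours on mouse chromosome 13 and had unlike patterns in marrow, so their start regions are shown. Positions of genes are from GENCODE M21 on GRCm38. Aspn (ENSMUSG00000021388.14) spans 49544443 to 49567565, Omd 49582462 to 49592822 and Ogn 49608046 to 49624501, all on the plus strand. Ecm2, a related leucine-rich matrix gene, lies just before them at 49504810 to 49532789. The 4 genes fit within 119.7 kb. Dcn, Lum and Kera form a cluster with Epyc on chromosome 10 spanning 202.8 kb, and Prelp and Fmod one with Optc on chromosome 1 spanning 151.1 kb. The X chromosome carries Bgn and chromosome 4 carries Podn. The windows run from 250 bases before to 50 bases after each gene's start on the plus strand, from RefSeq on GRCm38.p6. Capitals mark matches on either strand to TATAAA, the TATA box, and TGTGGT, a RUNX core:
Aspn, chr13:49544193-49544492: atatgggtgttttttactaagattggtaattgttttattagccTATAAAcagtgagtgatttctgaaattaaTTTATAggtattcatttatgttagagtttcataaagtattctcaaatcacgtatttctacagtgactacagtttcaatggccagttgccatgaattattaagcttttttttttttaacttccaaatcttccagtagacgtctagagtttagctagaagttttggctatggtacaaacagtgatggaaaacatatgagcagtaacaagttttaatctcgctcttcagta
Omd, chr13:49582212-49582511: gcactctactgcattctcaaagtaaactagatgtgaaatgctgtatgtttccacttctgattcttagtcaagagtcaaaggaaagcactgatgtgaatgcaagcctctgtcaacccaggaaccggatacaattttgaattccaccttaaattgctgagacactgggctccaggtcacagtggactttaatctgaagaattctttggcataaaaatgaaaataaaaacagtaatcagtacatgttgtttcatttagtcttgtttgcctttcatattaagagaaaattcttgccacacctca
Ogn, chr13:49607765-49608064: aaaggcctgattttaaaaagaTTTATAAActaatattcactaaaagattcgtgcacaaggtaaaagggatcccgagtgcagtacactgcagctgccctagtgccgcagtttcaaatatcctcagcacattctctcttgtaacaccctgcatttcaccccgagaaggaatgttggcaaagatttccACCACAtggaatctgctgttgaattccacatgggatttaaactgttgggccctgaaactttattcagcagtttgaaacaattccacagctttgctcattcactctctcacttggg
The Aspn window held 2 matches to TATAAA, 207 and 178 bases before the gene's start. The Ogn window held 2 that overlap each other and 1 match to TGTGGT, and the Omd window neither motif. CAGAC, a SMAD box, was searched too and matched in none of these windows. Of 32851 promoter windows in the table, 13.6% held TATAAA, 16.8% TGTGGT and 49.6% CAGAC. A match describes the letters only. A window was present for 8 of the 10 genes.

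**Figure D1:**
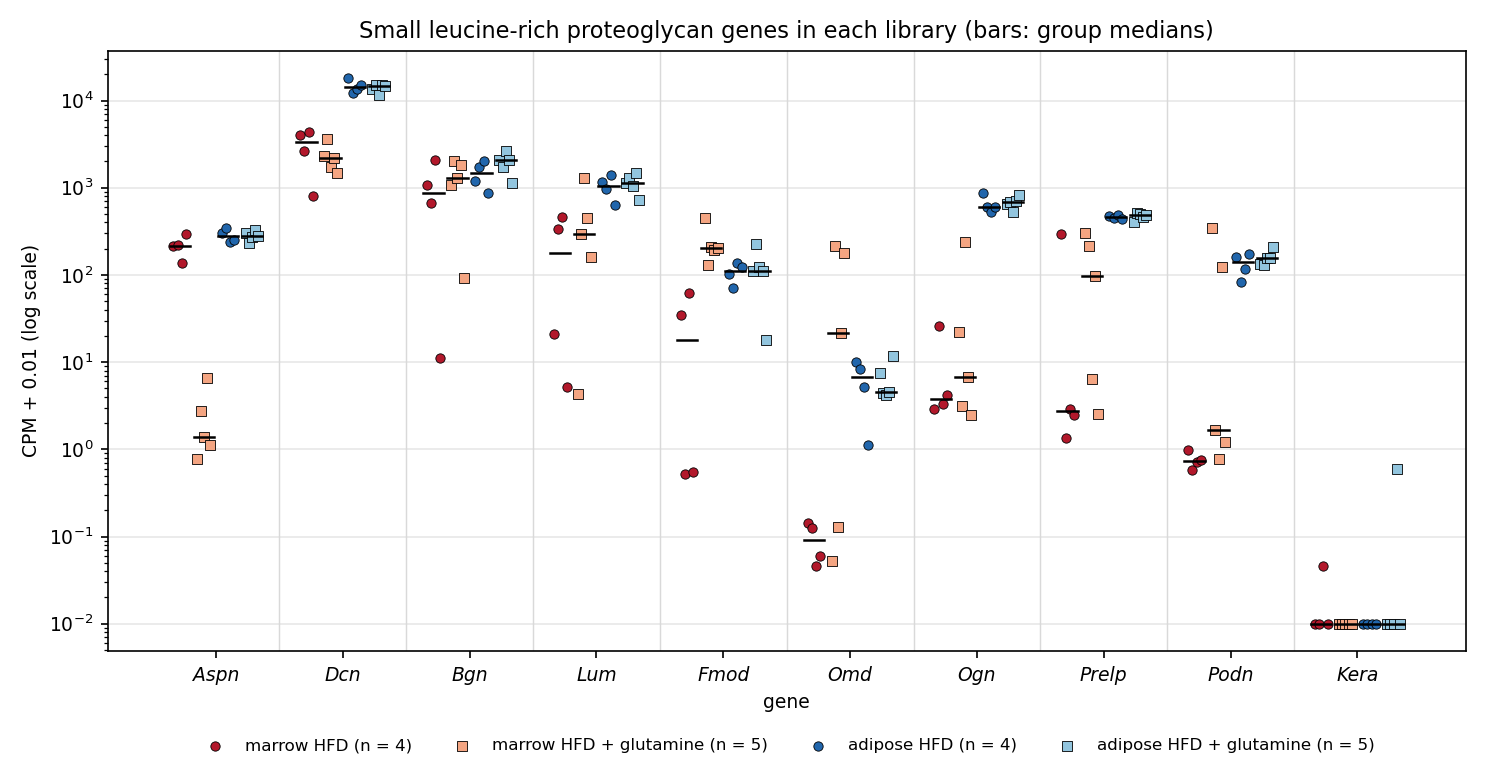
CPM plus 0.01 (log axis) of each proteoglycan gene, with 1 point per library and the 4 groups in separate colours; bars are group medians. Aspn separates the marrow arms, with HFD libraries at 138 to 297 CPM and glutamine libraries at 0.775 to 6.51 CPM, while its adipose points lie together.

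The class I members carry asporin, which lacks a glycosaminoglycan chain in its usual form and binds collagen and TGF-beta, together with decorin (Dcn) and biglycan (Bgn), its chain-bearing relatives. In the marrow HFD libraries 1_3, 5_11, 14_17 and 23_28, Aspn had 8187, 7628, 3863 and 5982 counts, or 215.5, 219.5, 138.0 and 297.0 CPM. In the marrow glutamine libraries 4_6, 10_12, unnumbered, 18_20 and 25_27 it had 18, 38, 23, 203 and 34 counts, or 0.775, 2.72, 1.36, 6.51 and 1.11 CPM. The arms did not overlap, and the lowest HFD library was 21.2 times the highest glutamine library. The means were 218 ± 65.0 CPM (SD, n = 4) and 2.49 ± 2.36 CPM (SD, n = 5). The log2 difference fitted by edgeR was -7.34 ± 2.71 (SE), and -7.69 to -6.74 with any 1 marrow library left out. Since Aspn was chosen on these values, that range is no separate support for the difference. In 4 glutamine libraries, all but 18_20, the Aspn count was 0.133% to 0.281% of its mean adipose count. That is near the common low level of marrow values given below, so the size of the fold difference is not well measured.

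Of 10107 marrow genes with a mean of at least 1 CPM, 0.277% were lower in every glutamine library than in any HFD library and 3.11% were higher. Of the 9 proteoglycan genes above that mean Aspn was among the former, in the contrast it was chosen on, and Fmod among the latter. With a limit set after its values were seen, 302 genes had at least 1000 counts in every marrow HFD library, and Aspn was the 1 gene among them with under 1000 in every glutamine library. In the other direction, 325 genes had at least 1000 counts in every glutamine library, and 2 of them, Pdp2 and Tmem123, had under 1000 in every HFD library.

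In adipose the level of Aspn varied little. The HFD libraries had 302, 341, 241 and 251 CPM and the glutamine libraries 4_6, 10_12, 13_15, 18_20 and 25_27 had 299, 233, 271, 327 and 281 CPM. The arms overlapped throughout, at 284 ± 46.5 CPM (SD, n = 4) and 282 ± 34.9 CPM (SD, n = 5). The log2 difference was -0.02 ± 0.18 (SE), with a 95% interval of -0.40 to 0.36 (edgeR, adjusted p = 0.999). In CPM the marrow HFD level overlapped the adipose level only through library 23_28, at 297 CPM. The other marrow HFD libraries, at 138.0 to 219.5 CPM, lay below the lowest adipose library, at 233 CPM. The marrow glutamine level lay well below all of these. With TMM factors the fitted value in the HFD arm was -1.66 ± 0.91 (SE, log2, adipose over marrow), so the order of those levels depends on the scaling. The glutamine difference in adipose minus that in marrow was 6.97 ± 1.32 (SE, log2) for Aspn, a description that carries over its marrow values.

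Cenpp, which encodes a centromere protein, lies on the minus strand at 49464023 to 49652785, contains Ecm2, Aspn, Omd and Ogn, and shares exon sequence with Aspn. The strand setting of the counting is not given in the sources used here, so reads from Aspn and Cenpp cannot be told apart there. Cenpp had 2, 2, 1 and 4 counts in the marrow HFD libraries and 1, 1, 5, 2462 and 6019 in the glutamine libraries, in the order above. Cenpp was near 0 in all 4 marrow libraries with high Aspn. The marrow glutamine library with the most Aspn, 18_20, had 2462 Cenpp counts, and 25_27 with 6019 Cenpp counts had 34 of Aspn. In adipose, Cenpp had 3 to 424 counts. The part of the overlap in the Aspn counts was not tested.

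**Figure D2:**
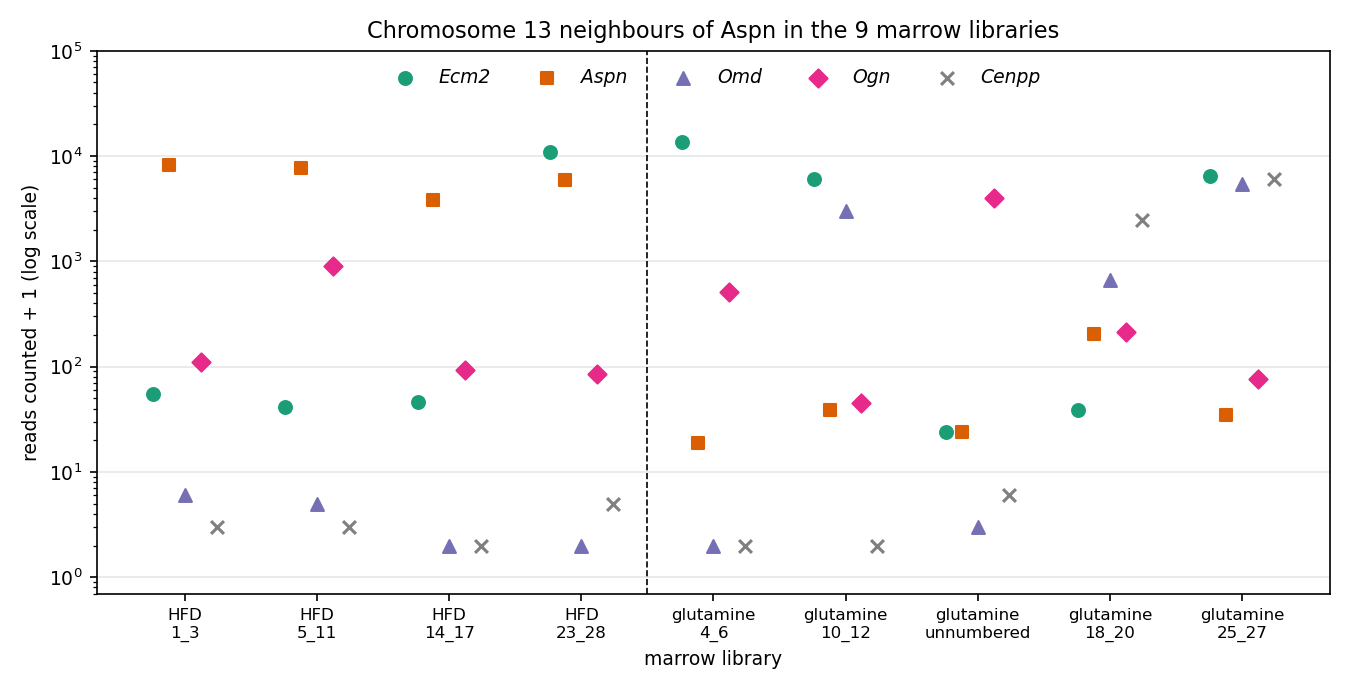
Read counts plus 1 (log axis) of Ecm2, Aspn, Omd, Ogn and Cenpp, 1 colour and marker per gene, in each of the 9 marrow libraries on the x axis, with a dashed line between the HFD and glutamine libraries. Aspn is high in the 4 HFD libraries and low in the 5 glutamine libraries, while Omd is high in 3 glutamine libraries and Ecm2 in libraries of both arms.

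The neighbours of Aspn did not follow it. Ecm2 had 54, 40, 45 and 10969 counts in the marrow HFD libraries and 13667, 6108, 23, 38 and 6425 in the glutamine libraries. It was high in 1 HFD library and 3 glutamine libraries. Omd, a keratan sulfate proteoglycan of mineralised tissue, had 5, 4, 1 and 1 counts in HFD and 1, 3019, 2, 665 and 5441 in glutamine. The 3 high libraries corresponded to 216, 21.3 and 177 CPM, and the other 2 glutamine libraries were as low as the HFD libraries. Ogn, the class III member, also called mimecan, had 2.90, 26.0, 3.29 and 4.17 CPM in HFD and 21.9, 3.15, 238, 6.76 and 2.47 CPM in glutamine, with the unnumbered library far above the rest. Without that library its log2 difference between arms went from 3.03 to -0.71.

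Decorin was the most abundant member in both tissues. In marrow it had 4050, 2637, 4358 and 805 CPM in HFD and 2299, 3627, 1725, 2216 and 1471 CPM in glutamine. The arms overlapped, and the log2 difference was -0.88 ± 0.95 (SE; edgeR, adjusted p = 0.743). Across the 9 marrow libraries the SD of log2(CPM + 1) was 0.78 for Dcn, against a median of 2.95 over 7686 genes with a mean of at least 10 CPM. Biglycan, a chain-bearing proteoglycan of bone matrix, had 1079, 661, 2065 and 11.2 CPM in marrow HFD and 1088, 2046, 1309, 1828 and 92.2 CPM in glutamine. It was low in HFD 23_28 and glutamine 25_27 and overlapped elsewhere. These libraries had the highest neutrophil marker sums of their arms (54233 and 24976 CPM) and the lowest osteoblast marker sums (52519 and 63208 CPM, mostly Col1a1). The part of these markers in the low values was not tested. The arms differed by -0.11 ± 1.23 (SE, log2; edgeR, adjusted p = 0.981).

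The class II members are lumican (Lum), fibromodulin (Fmod), Omd, Prelp and keratocan (Kera), mostly keratan sulfate proteoglycans that regulate fibril thickness. Fmod had 34.9, 0.518, 62.2 and 0.546 CPM in marrow HFD and 452, 129, 207, 195 and 204 CPM in glutamine. Every glutamine library lay above every HFD library, as for 3.11% of the genes compared. The fitted log2 difference was 2.64 ± 2.38 (SE) and did not pass the test (edgeR, adjusted p = 0.659). Lum had 20.9, 335, 466 and 5.21 CPM in HFD and 4.26, 293, 1293, 450 and 160 CPM in glutamine, and the arms overlapped (log2 difference 0.95 ± 1.70 SE; edgeR, adjusted p = 0.878). Prelp, which binds basement membranes through a basic amino-terminal region, had 295, 1.32, 2.93 and 2.48 CPM in HFD and 302, 216, 6.46, 98.5 and 2.54 CPM in glutamine. It was high in 1 HFD library and 3 glutamine libraries. Kera, known from the cornea, had 1 count in 1 marrow library, 28 counts in 1 adipose library and 0 in the other 16. A count of 0 allows up to 0.0504 to 0.215 CPM, taken as 3 counts of each library's total and covering counting error only.

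Podn, podocan, a class V member known from smooth muscle and bone, had 0.974, 0.575, 0.714 and 0.745 CPM in marrow HFD and 350, 1.65, 0.770, 123 and 1.203 CPM in glutamine. It was high in libraries 4_6 and 18_20 and near 1 CPM in the other 3 glutamine libraries. The log2 difference was 6.01 ± 3.03 (SE; edgeR, adjusted p = 0.258). For Ogn and Prelp the fitted values were 3.03 ± 2.63 and 0.69 ± 2.34 (SE, log2), with adjusted p of 0.636 and 0.939 from the edgeR fit. Single libraries moved these values: Prelp was 4.58 without HFD 1_3 and 0.12 without glutamine 4_6, Podn 3.97 without glutamine 4_6, and Fmod 4.44 without HFD 14_17.

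In the marrow glutamine comparison 6041 genes were tested and 0.132% were called at an adjusted p under 0.05, all lower with glutamine. Leaving Aspn aside, 7 members were tested (Omd and Kera had counts in too few libraries to pass the count filter), and none were called by edgeR, limma-voom or DESeq2. At an unadjusted p under 0.05 there was 1, Podn, against 18.7% of all genes tested. In adipose 9 members were tested among 15114 genes, and the percentage called was 0. None of the 9 members reached an unadjusted p under 0.05, while 4.04% of all genes did, and DESeq2 and limma-voom called 0 members. No member's adipose arms were free of overlap, against 0.984% of 15350 genes with glutamine higher throughout and 0.599% lower. The median log2 difference was 0.95 over those 7 members in marrow, against -0.22 over all genes tested, and 0.07 over the 9 in adipose, against -0.01.

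**Figure D3:**
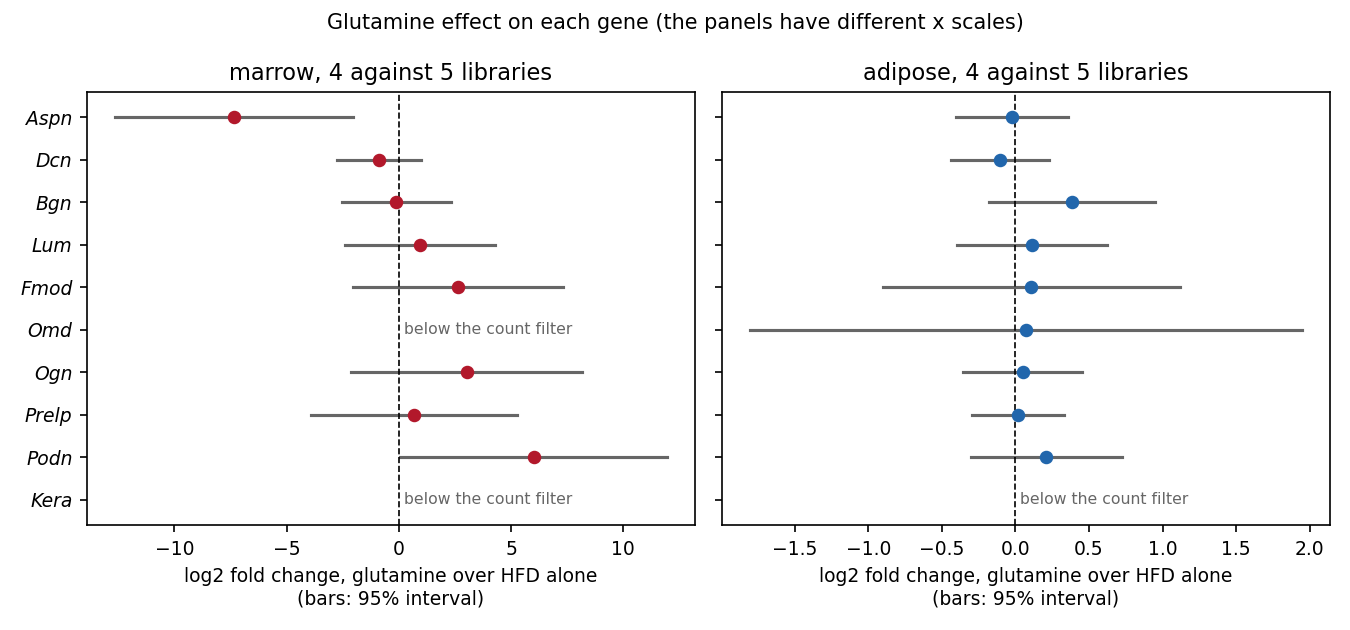
Log2 difference of glutamine against HFD for each proteoglycan gene in marrow (left) and adipose (right), with points for the fitted value and bars for 95% intervals from edgeR, not adjusted for the number of genes; the marrow bar of Aspn is a description. The panels have different x scales, since the intervals are several log2 units wide in marrow and mostly under 1 unit either side in adipose, where they all include 0.

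In adipose most members varied less between libraries than in marrow, and Fmod and Omd varied most. The 9 libraries ranged from 11475 to 18116 CPM for Dcn, 880 to 2613 for Bgn, 633 to 1465 for Lum, 521 to 869 for Ogn, 402 to 513 for Prelp, 233 to 341 for Aspn, 83.7 to 207 for Podn, 17.7 to 225 for Fmod and 1.10 to 11.9 for Omd. Because only transcript ends were counted, these CPM need no correction for gene length. In that order, neighbours overlapped for Bgn and Lum, Lum and Ogn, and Podn and Fmod, and the other neighbouring levels did not. The SD of log2(CPM + 1) was 0.109 for Prelp, 0.190 for Dcn, 0.192 for Aspn and 0.256 for Ogn, below the median of 0.533 over 9405 genes, while Omd (0.777) and Fmod (0.995) were above it. For Fmod the lowest library was glutamine 25_27 at 17.7 CPM, with the next at 70.2. The log2 differences between arms were 0.38 ± 0.26 (SE) for Bgn, with a 95% interval of -0.18 to 0.95, 0.21 ± 0.24 for Podn and at most 0.11 either way for the others.

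The test of the difference between the glutamine effects of the tissues had 15203 genes, of which 11.9% were called. Of the 8 members tested other than Aspn, Omd (-9.58 ± 2.46 SE; edgeR, adjusted p = 0.0432) and Podn (-6.53 ± 2.11 SE; edgeR, adjusted p = 0.0482) had glutamine effects that were lower in adipose than in marrow by this test, as did 7.87% of all genes, against 4.05% higher. Fmod (-3.02 ± 1.70 SE; edgeR, adjusted p = 0.279) and Ogn (-2.87 ± 1.78 SE; edgeR, adjusted p = 0.347) were not called. The fit of all 18 libraries shared each gene's dispersion between the tissues, though the spread was larger in marrow. The SE of Podn was 2.11 here and 3.03 in the fit of marrow alone. The adjusted p of these calls may therefore understate the marrow spread. The Omd and Podn calls rest on the 3 and 2 high marrow libraries given above. Both were lost when any 1 of the 9 adipose libraries or 4 marrow HFD libraries was left out, with Omd at an adjusted p of 0.0555 without HFD 1_3, and with RLE factors (0.0501 for Omd and 0.0816 for Podn, edgeR adjusted p). Without any 1 adipose library or marrow HFD 23_28 no gene of the table passed.

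**Figure D4:**
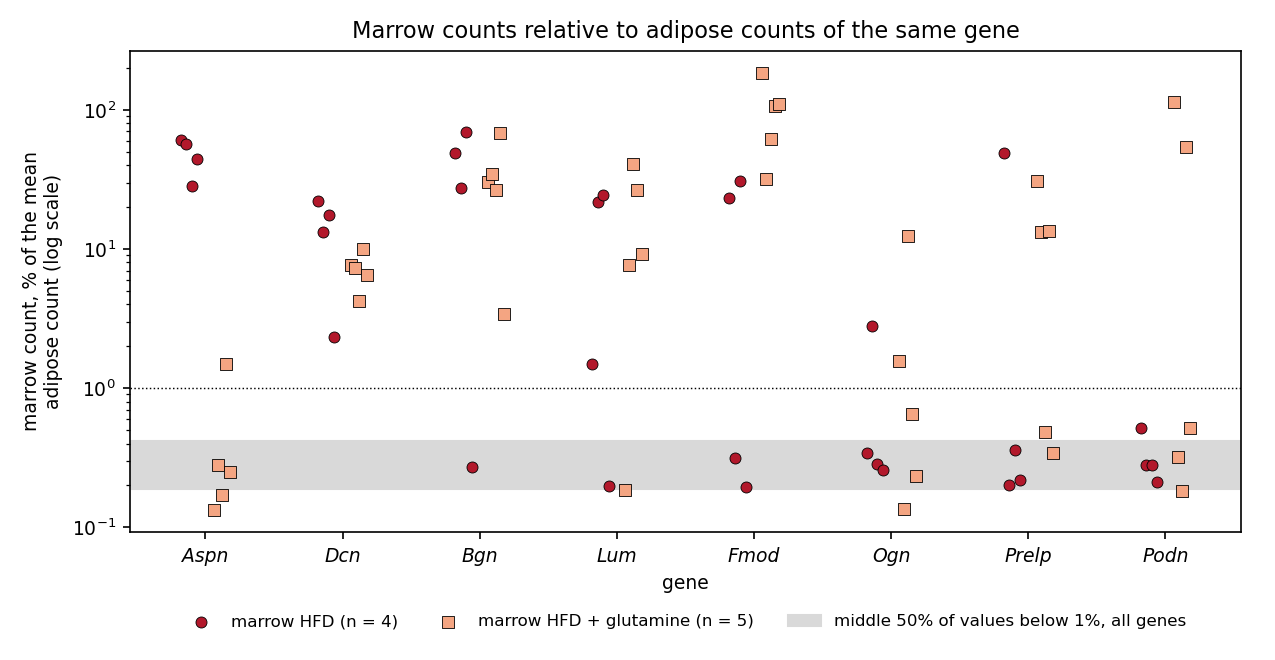
Count of each member in each marrow library as a percentage of its mean adipose count (log axis), for the 8 members with a mean of at least 1000 counts in adipose; circles are HFD and squares glutamine libraries, the dotted line is 1%, and the grey band is the middle 50% of values below 1% over all such genes (0.187% to 0.417%). Of 72 values 27 lie below 1%, 38 at 5% or more and 7 between.

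Marrow values of a member tended to be either substantial or near a common low level. For the 8 members with a mean of at least 1000 adipose counts there were 72 gene and library pairs. Of these 27 were below 1% of the adipose mean, 7 were from 1% to 5% and 38 were at 5% or more. The median of the low values was 0.191% to 0.344% depending on the member. Over all 6977 genes with that adipose mean, 59.5% of 62793 pairs were below 1%, 4.15% were from 1% to 5%, and the low values had a median of 0.282%. The members' low values thus lay near the median over all such genes.

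Tissue, cell isolation and count table go together in these data, so their parts in a difference between tissues cannot be told apart. Between tissues, 3 of 9 members, Dcn, Ogn and Prelp, were higher in every adipose library than in any marrow library in CPM, and none were lower, against 16.7% and 0.209% of 14385 genes. Adipose means were 5.54 times the marrow means for Dcn, 19.4 times for Ogn, 4.53 times for Prelp, 3.23 times for Lum, 2.89 times for Aspn (whose marrow mean covers both arms), 2.75 times for Podn and 1.52 times for Bgn. Marrow means were 1.26 times adipose for Fmod and 7.28 times for Omd, the latter from 3 libraries. The edgeR fit called 51.7% of 15203 genes between the tissues, with 40.4% higher in adipose and 11.2% lower. Of the 8 members tested other than Aspn it called Ogn and Dcn, both higher in adipose. It gave 2.80 ± 0.94 (SE, log2) for Ogn (adjusted p = 0.0173) and 0.63 ± 0.26 for Dcn (adjusted p = 0.0476), against a median of 1.43 over all genes. Relative to that median Ogn was at 1.38 and Dcn at -0.80. The Dcn call was lost when any adipose library but HFD 14_17, or marrow HFD 1_3, HFD 5_11, glutamine 18_20 or glutamine 25_27, was left out (largest edgeR adjusted p = 0.0937). The fitted values were 2.21 ± 1.01 (SE) for Podn, 0.60 ± 0.94 for Prelp, -0.19 ± 0.79 for Lum, -0.53 ± 1.07 for Omd, -1.24 ± 0.60 for Bgn and -1.36 ± 0.85 for Fmod, and none of these passed the edgeR test. For Lum and Bgn the sign is opposite to that of the CPM ratio. With RLE factors the median over all genes was -1.94, and Dcn and Ogn were fitted at -3.18 and -0.99, so the direction between tissues depends on the scaling, and the CPM ratios above rest on library totals alone. Within the HFD arm, where 43.6% of genes were called (37.7% higher in adipose and 5.91% lower), Podn was 5.47 ± 1.74 (SE; edgeR, adjusted p = 0.0178) and Ogn 4.24 ± 1.49 (SE; edgeR, adjusted p = 0.0280), against a median of 3.38. Within the glutamine arm, where 38.6% were called (31.5% higher and 7.16% lower), Omd was -5.32 ± 1.65 (SE; edgeR, adjusted p = 0.0157), against a median of 0.55.

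The other genes of the pathway came from 9 lists of 87 genes, drawn up with results of these data known. For glutamine none of the 51 tested in marrow or 80 tested in adipose were called by edgeR. At an unadjusted p under 0.05 there were 6 and 3, against 18.7% and 4.04% of all genes tested, DESeq2 called 2 and 0, and limma-voom 1 and 0. Between tissues 26 of 80 were higher in adipose and 12 lower, against 40.4% and 11.2% of all genes. RLE factors turned the list split to 11 and 39, and that over all 15203 genes to 2465 and 6524. The list split was 13 and 30 with upper-quartile factors and 42 and 8 with library totals alone. Collagen I, the main fibril of bone, had 127422 CPM of Col1a1 in marrow and 6992 in adipose (-6.11 ± 0.28 SE, log2; edgeR, adjusted p = 4.06e-12), and Col3a1, a fibril collagen of soft tissue, 705 and 11315 CPM (2.13 ± 0.49 SE; edgeR, adjusted p = 0.00119). Chad, chondroadherin, a leucine-rich protein of cartilage and bone, had 825 CPM in marrow and 1.06 in adipose (-11.14 ± 0.93 SE; edgeR, adjusted p = 7.18e-08). Chst11, a chondroitin sulfotransferase, had 169 and 15.9 CPM (-5.19 ± 1.12 SE; edgeR, adjusted p = 0.000686). Chst1, a keratan sulfotransferase, had 0.800 and 194 CPM (6.05 ± 0.86 SE; edgeR, adjusted p = 7.55e-06), and Kdr, a receptor reported to bind decorin, 1.88 and 452 CPM (5.95 ± 0.82 SE; edgeR, adjusted p = 5.79e-06). Kdr is also an endothelial marker, and the 6 endothelial markers summed to 404 to 1508 CPM in adipose and 2.33 to 257 CPM in marrow; their part in its difference was not tested. Also called lower in adipose were Col1a2 (-5.11 ± 0.31 SE, edgeR adjusted p = 2.81e-10) and Chsy1 (-3.24 ± 1.02 SE, edgeR adjusted p = 0.0123). So were Plod2 (-2.42 ± 0.97 SE, edgeR adjusted p = 0.0413) and Pcolce (-1.89 ± 0.78 SE, edgeR adjusted p = 0.0472). Loxl1 was called higher (2.31 ± 0.84 SE, edgeR adjusted p = 0.0266). The list split above moved with the factors. Values with other factors are not given for single list genes, so these directions hold for TMM factors only. Several other abundant genes of the lists did not pass the edgeR test between tissues. Among them were Ecm2 at 198 CPM in marrow and 206 in adipose (-1.97 ± 1.17 SE), the keratan galactosyltransferase B4galt1 at 205 and 337 CPM (-0.85 ± 0.88 SE) and Ugdh, which makes a chain precursor, at 250 and 318 CPM (-1.09 ± 1.24 SE). The receptors Lrp1 at 348 and 821 CPM (-0.50 ± 0.66 SE) and Egfr at 108 and 246 CPM (-0.33 ± 1.02 SE) did not pass either. For each of these genes, from Ecm2 to Egfr, the CPM were higher in adipose while the fitted value was negative. Their direction thus depends on the scaling.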

How the data were processed

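Per the labels' protocols, 30 ng of RNA went into each 3′-end library and read 1 alone was used. The deposited values are raw counts for each gene. The submitters' processing notes name STAR 2.7.10b, HTSeq 0.11.3, FastQC 0.12.1 and GRCm38. How strand and duplicates were handled, and which annotation was used, is not given in the sources used here. Depth is 13970788 to 37984603 counts per marrow library and 35871168 to 59529238 per adipose library.

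CPM were counts over library totals without further scaling. edgeR 4.0.16 in R 4.3.3 (filterByExpr, TMM factors, quasi-likelihood F test, two-sided, Benjamini-Hochberg adjustment, threshold 0.05) was fitted to all genes of each tissue, and to all 18 libraries for the comparisons between tissues. A standard error is the log2 fold change over the square root of F, and 95% intervals use the t quantile. The fits were tested on simulated counts with the same dispersion for every gene. Those counts did not imitate the large spread between marrow libraries, so they do not show how the fits that use marrow perform. Alternatives were RLE and upper-quartile factors, count filters, DESeq2 1.42.0, limma-voom (limma 3.58.1), a joint fit, a block on library number and leaving out each library. Library totals alone were added after the data were seen.

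Named genes were the 10 members and, from each list, up to 3 of the highest mean CPM. Others were named after their values were seen. The members and lists were chosen with earlier results of these data known. Aspn was left out of counts of members called in every comparison that uses marrow values.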

Additional observations from a re-analysis of the deposited data

Results flagged for a closer look

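Within an arm, 34 groups of 4 or 5 library values were looked at for a library far from the others, and 4 stood apart, all in marrow. Chance meets the criterion in about 1 in 20 groups of normally distributed values. Marrow values tended to be either substantial or near a low level, so that rate need not hold here. Fmod had 452 CPM in glutamine 4_6, where the next library had 207. Ogn had 26.0 CPM in HFD 5_11 (next 4.17) and 238 CPM in the unnumbered glutamine library (next 21.9). Prelp had 295 CPM in HFD 1_3 (next 2.93).

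The glutamine effect differed between tissues by the fit of all 18 libraries for 2 of the members tested, as log2 differences of the adipose effect minus the marrow effect: -6.53 for Podn and -9.58 for Omd. Neither passed with RLE factors, upper-quartile factors or the replicate block.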

How the results depend on the processing

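In marrow, 8 genes were called for glutamine, and 0 with RLE factors, upper-quartile factors, at least 100 counts in every library or library totals alone, 202 with no count filter, 722 with DESeq2, 5 with limma-voom, 3923 in the joint fit, and 0 to 19 leaving out 1 library. Counts of members called leave out Aspn except in adipose, since it was chosen on its marrow values. In marrow the joint fit called 2 members and the other fits 0. In adipose DESeq2 called 31 genes. For the difference between tissues' effects, 1812 genes and 2 members became 0 and 0 with RLE, upper-quartile, at least 100 counts in every library and the replicate block, 1055 genes and 1 member with DESeq2, 6 genes and 0 members with limma-voom, 1 member with no count filter, and 0 to 2681 genes and 0 to 2 members leaving out 1 library (442, 466 and 399 without marrow HFD 1_3, 5_11 and 14_17). Between tissues 7857 genes became 93 with at least 100 counts in every library, and 7021 to 8474 leaving out 1 library. Members called there, 2, became 6 with RLE or DESeq2, 5 with upper-quartile, 4 with limma-voom, library totals alone or without the 2 thinnest marrow libraries, 1 with at least 100 counts or no count filter, and 1 to 3 leaving out 1 library. The causes were not tested. The split of calls between tissues, 6149 higher in adipose and 1708 lower, became 2465 and 6524 with RLE and 8099 and 388 with library totals alone.

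Both members called between tissues, Dcn and Ogn, changed sign with RLE, upper-quartile and DESeq2. The values between tissues that changed sign were, with RLE, Aspn -1.74, Dcn -3.18, Ogn -0.99, Prelp -3.13 and Podn -1.58. With upper-quartile they were Aspn -1.48, Dcn -2.82, Ogn -0.51, Prelp -1.80 and Podn -0.86, and with DESeq2 Aspn -1.73, Dcn -3.18, Ogn -0.99 and Prelp -3.13. Limma-voom gave Lum 1.48 and Omd 1.02, at least 100 counts Bgn 0.31, the 2 thinnest excluded Lum 0.58, the replicate block Lum 1.66, and library totals alone Bgn 0.61, Lum 1.84, Fmod 0.56 and Omd 1.23. For glutamine in marrow Bgn was 1.59 with upper-quartile, 0.21 with at least 100 counts and 0.42 with library totals alone, and without the 2 thinnest Lum was -1.33 and Ogn -0.71. For glutamine in adipose Aspn was 0.027 with upper-quartile and Fmod -0.21 with limma-voom. In the joint fit Lum was -0.063, Fmod -0.083, Omd -0.14, Ogn -0.18, Prelp -0.20 and Podn -0.022. For the difference of effects Bgn was -0.19 with limma-voom, -0.12 with the block and -0.022 with library totals alone, Ogn 0.61 with the block, and without the 2 thinnest Lum was 1.33 and Ogn 0.69.

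Leaving out 1 library gave, in marrow, Bgn -0.58 to 1.22, Lum -0.82 to 2.28 and Ogn -0.71 to 3.90. In adipose it gave Aspn -0.12 to 0.087, Fmod -0.26 to 0.38, Lum -0.072 to 0.26, Ogn -0.056 to 0.21, Omd -0.29 to 0.39 and Prelp -0.019 to 0.056. For the difference of effects it gave Bgn -0.72 to 0.80, Lum -2.16 to 0.93, Ogn -4.20 to 0.57 and Prelp -4.88 to 0.34, and between tissues Lum -0.42 to 0.77 and Omd -0.69 to 0.010. Same-numbered libraries of the 2 tissues had correlations of -0.0175 to 0.0296 in 8 pairs, and 1 of 8 correlated best with its own number. With the spread between marrow libraries, these correlations cannot tell whether same-numbered libraries share a source. The main fit did not use the numbers as a pairing, since the labels do not state what they mark. The replicate block left 7499 genes and 2 members called between tissues. The marrow depth and the large spread between marrow libraries limit the marrow comparisons.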
